A study of Mus musculus with 2 samples.

Results

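Guanylate-binding proteins (GBPs) are large GTPases of the dynamin superfamily whose genes are among the most strongly interferon-inducible genes of mammalian cells. They are best known from macrophages and epithelial cells, where they gather on pathogen-containing vacuoles and on cytosolic bacteria, expose microbial ligands to inflammasomes and take part in cell-autonomous defense. Mouse Gbp genes lie in a cluster on chromosome 3 and another on chromosome 5, and interferon-gamma acts on them in part through IRF1. The expression of 9 of these genes (Gbp2, Gbp3, Gbp4, Gbp5, Gbp6, Gbp7, Gbp8, Gbp9 and Gbp10) was examined in DAC-treated and control CT26 cells. They were chosen by symbol, matched to the Ensembl identifiers of the count tables, and are 9 of the 24223 genes listed there. The annotation put 4 of them on chromosome 3 and 5 on chromosome 5.

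CT26 cells grow from a chemically induced colon carcinoma of a BALB/c mouse. DAC (decitabine) is a nucleoside analog of cytosine that is built into DNA and there captures DNA methyltransferases. The DAC-treated cells were given 1 μM DAC in 3 doses at intervals of 24 h and were collected after a further 24 h in medium without the drug. The control cells were kept in parallel and received no DAC. RNA sequencing gave 1 library for each condition, so no difference described here has a replicate check and no p-value is given. Library totals were 35163420 counts for DAC-treated cells and 34221886 counts for control cells. Counts were scaled with edgeR's TMM factors to CPM, in which each library is brought to 1000000 counts, so that 1 CPM equals 37.6 counts for DAC and 32.0 counts for control. Each ratio is the CPM in DAC-treated cells over that in control cells. The range in parentheses after it is the exact (Clopper-Pearson) 95% counting interval, which covers counting error only and not differences between cultures. To be called higher or lower, a gene needed a CPM of 1 or more in one of the libraries, a ratio of at least 2 or at most 0.5, and an interval on the same side of 1. Among the 13545 genes past the CPM minimum, 1468 (10.8%) were higher and 716 (5.29%) were lower, with a median log2 ratio of -0.02. With scaling by library totals alone, every log2 ratio shifted by 0.19, giving 1889 higher and 458 lower genes.

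The labelled origin was compared with marker genes. Of 9 epithelial markers 8 were listed, with a summed level of 257 CPM in DAC-treated and 75.2 CPM in control cells. The sum was carried by the keratins Krt8 (118 CPM), Krt18 (95.2 CPM) and Krt20 (41.2 CPM) in DAC-treated cells and by Krt18 (56.1 CPM) and Krt20 (18.5 CPM) in control cells. Krt8 had 4445 counts in DAC-treated cells and 5 counts in control cells. The junction genes Cdh1 and Cldn4 and the brush border gene Vil1 had 9, 9 and 12 counts in DAC-treated cells, and all 3 had 0 counts in control cells. Of 8 macrophage markers 5 were listed, with a summed level of 76.2 CPM in DAC-treated and 27.9 CPM in control cells, mostly from Cd14 and Cd68. Cd14 had a ratio of 4.39 (3.93 to 4.92), Cd68 1.47 (1.31 to 1.65) and Mrc1 3.41 (1.83 to 6.82). Lyz2, an abundant macrophage gene, had 17 counts in DAC-treated and 31 in control cells, and Fcgr1 had 25 counts in DAC-treated and 0 in control cells. The pan-leukocyte gene Ptprc had 0 counts in DAC-treated cells and 3 in control cells. Of 8 T and B cell markers 3 were listed (3.33 CPM in DAC-treated and 0.812 CPM in control cells), with most of the sum from Cd79a (112 counts in DAC-treated and 19 in control cells), and of 6 endothelial markers 5 were (2.87 CPM in DAC-treated and 2.50 CPM in control cells). The part of other cell types in the Gbp values was not tested. In bulk RNA, more cells that express a gene and more RNA per cell cannot be told apart.

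Promoters are shown for the chromosome 3 genes only, whose best known control element can be read in the sequence. The promoter windows used here included none of the chromosome 5 members, so those genes were not searched. Interferon-stimulated response elements (ISREs), bound by interferon regulatory factors, contain a repeat of TTTC or its complement GAAA. RefSeq promoter windows (GRCm38.p6, 250 bases before to 50 bases after each start) matched by symbol for Gbp5, Gbp7, Gbp3 and Gbp2 and for their neighbor Gbp2b. The windows were searched on both strands for TTTCNNTTTC and its complement GAAANNGAAA, where N is any base. Each of these 5 genes had a match, against 1131 of all 32851 windows (3.44%). The stretches below are on the plus strand, 5′ to 3′, with the matched bases in capitals.
Gbp5, chr3:142496754-142496793: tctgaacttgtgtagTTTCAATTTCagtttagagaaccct
Gbp7, chr3:142530268-142530307: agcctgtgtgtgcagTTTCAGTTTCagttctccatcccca
Gbp3, chr3:142559984-142560029: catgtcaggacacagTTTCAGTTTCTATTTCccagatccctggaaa
Gbp2b, chr3:142594695-142594734: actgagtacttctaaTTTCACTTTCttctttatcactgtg
Gbp2, chr3:142620589-142620628: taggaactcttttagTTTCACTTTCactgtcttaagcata
Gbp3 had 2 overlapping matches, the others 1 each. In Gbp3 the matched bases ran 45 to 30 bases before the annotated RefSeq start, in Gbp7 53 to 44 bases and in Gbp2 59 to 50 bases. In Gbp2b they ran 137 to 128 bases before it and in Gbp5 165 to 156 bases. The annotation used for gene positions begins Gbp5 at 142493978 and Gbp2 at 142620602. The matched bases of Gbp5 and Gbp2 therefore lie inside those gene models. Gbp3 also had a second annotated start, whose window held no match. The palindrome TTCNNNGAA, the form of the interferon-gamma-activated site, had 2 matches each in the windows of Gbp5 and Gbp7, none in those of Gbp3, Gbp2b and Gbp2, and at least 1 in 2726 of all windows (8.30%). CpG dinucleotides, the substrate of DNA methyltransferases, were below the median of all windows, which was 7, in 4 of the 5 genes, with 5 in the Gbp5 window, 2 in each Gbp3 window, 1 in Gbp2b and 2 in Gbp2. The Gbp7 window had 8. A match is a description of the sequence and not a measured binding site, and methylation was not measured in these libraries.

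Gbp transcripts were on the whole more abundant after low-dose DAC. All 9 genes passed the CPM minimum. Of these, 5 (Gbp2, Gbp3, Gbp4, Gbp9 and Gbp10) were called higher, where 10.8% of all tested genes were, and 1 (Gbp8) was called lower, where 5.29% of all tested genes were. Gbp5, Gbp6 and Gbp7 did not reach a ratio of 2. The median log2 ratio of the 9 genes was 1.02. Summed over the 9 genes, DAC-treated cells had 11102 counts (295 CPM) and control cells had 4083 counts (127 CPM), a ratio of 2.32 (2.24 to 2.40). The genes are close relatives and share some sequence, so they are not independent readings.

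**Figure D1:**
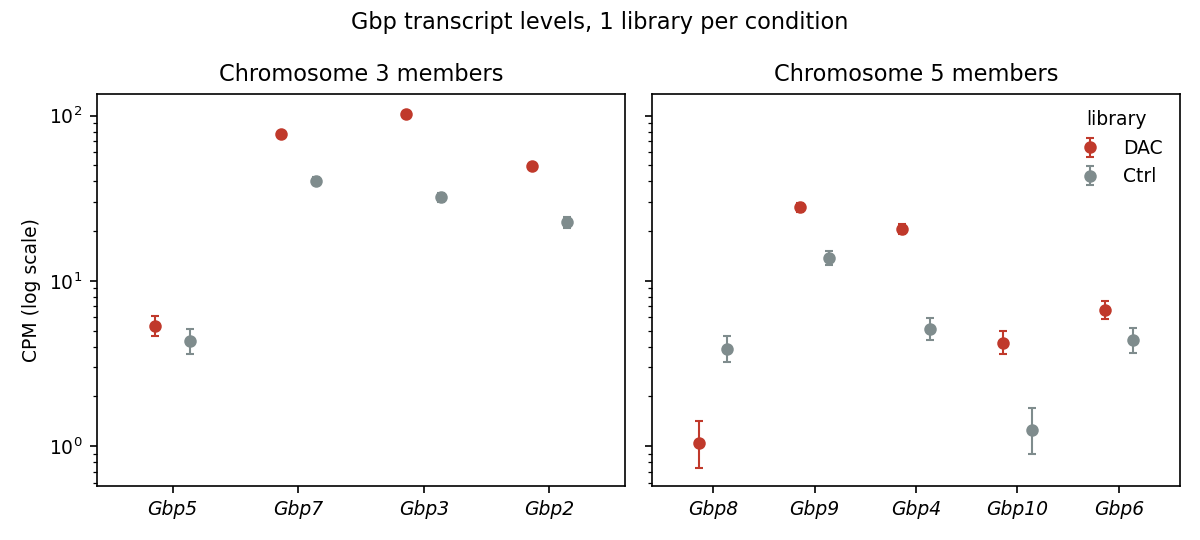
CPM of each gene on a log scale in the DAC library (red) and the control library (grey), with the chromosome 3 genes on the left and the chromosome 5 genes on the right, in genomic order. Points are single libraries and bars are exact 95% counting intervals. The red point lies above the grey one for every gene except Gbp8, where DAC-treated cells had 1.04 CPM and control cells 3.87 CPM, and the bars of Gbp5 overlap.

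On chromosome 3 the 4 genes span chr3:142493978-142638008 (GRCm38), all on the plus strand, and they held most of the Gbp counts. Gbp3, which lies from 142560026 to 142573209, had 3867 counts (102.9 CPM) in DAC-treated cells and 1027 counts (32.1 CPM) in control cells. Its ratio of 3.21 (2.99 to 3.44) stood above that of 94.4% of tested genes, and no other member of this cluster had an interval that reached it. Gbp2, a prenylated GBP that coats Toxoplasma vacuoles in mouse cells, lies from 142620602 to 142638008. It had 1860 counts (49.5 CPM) in DAC-treated cells and 723 counts (22.6 CPM) in control cells, a ratio of 2.19 (2.01 to 2.39). Thus Gbp3 and Gbp2 were upregulated by the 2-fold rule, with both counting intervals wholly above 2.

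Gbp7 and Gbp5 stayed under the 2-fold rule. Gbp7, which in mouse macrophages is linked to assembly of the phagosomal NADPH oxidase, lies from 142530342 to 142550149. It had 2903 counts (77.3 CPM) in DAC-treated cells and 1287 counts (40.2 CPM) in control cells. Its ratio of 1.92 (1.80 to 2.05) was just under the limit and its interval included 2. Scaled by library totals the ratio was 2.20, and centred on genes of like GC content it was 2.32, and under both Gbp7 was called higher. The pseudogene Gm43802, which shares 10.5% of the 50-base stretches of Gbp7, had 3 counts in each library. Gbp5, which promotes NLRP3 inflammasome assembly, lies from 142493978 to 142522344. It had 200 counts (5.32 CPM) in DAC-treated cells and 138 counts (4.31 CPM) in control cells. Its ratio of 1.24 (0.989 to 1.55) had an interval that included 1, so no difference was detectable at this depth. Gbp2b, often called Gbp1, lies between Gbp3 and Gbp2 and was not in the set of 9. It had 1323 counts in DAC-treated cells and 605 counts in control cells, a ratio of 1.86 (1.69 to 2.06).

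The chromosome 5 genes span chr5:105014150-105293698, all on the minus strand. Their ratios were spread more widely because of Gbp8. The other 4 ran from 1.53 to 4.03, against 1.24 to 3.21 on chromosome 3. Gbp4, which in mouse cells binds IRF7 and limits its activity, lies from 105115767 to 105139586. It had 776 counts (20.7 CPM) in DAC-treated cells and 164 counts (5.12 CPM) in control cells. Its ratio of 4.03 (3.40 to 4.80) was the highest of the 9 and above that of 95.8% of tested genes. The study picked Gbp4 from these libraries as an example gene, so its direction is not independent evidence. Gbp9, which is recruited to Toxoplasma vacuoles in mouse cells, lies from 105077630 to 105139539. It had 1046 counts (27.8 CPM) in DAC-treated cells and 440 counts (13.7 CPM) in control cells, a ratio of 2.03 (1.81 to 2.27). Gbp9 and Gbp7 therefore fell on opposite sides of the 2-fold limit with intervals that overlap.

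Gbp8 was the exception. It had 39 counts (1.04 CPM) in DAC-treated cells and 124 counts (3.87 CPM) in control cells, a ratio of 0.268 (0.182 to 0.387), or 3.73-fold lower. Only 0.989% of tested genes had a lower ratio. Its annotated gene runs from 105014150 to 105139540, across Gbp9 and Gbp4, because it, Gbp9 and Gbp4 are annotated with a 5′ exon of 60 or 61 bases in common at the right end. Of the 50-base stretches of Gbp8, 18.1% occur in other genes as well, with Gbp11, Gbp10, Gbp9 and Gbp4 each sharing 6.61% to 7.37% of them. Reads of these neighbors could thus be counted for Gbp8, and the sources used here do not give how the counting treated them. At 1.04 CPM the DAC value lies just over the CPM minimum, and with a minimum of 5 CPM neither Gbp8 nor Gbp10 was tested.

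Gbp6 and Gbp10 could not be read apart. Gbp10, from 105215699 to 105239533, had 159 counts (4.23 CPM) in DAC-treated cells and 40 counts (1.25 CPM) in control cells, a ratio of 3.39 (2.38 to 4.92). Gbp6, from 105270702 to 105293698, had 252 counts (6.71 CPM) in DAC-treated cells and 140 counts (4.37 CPM) in control cells, a ratio of 1.53 (1.24 to 1.90). The coding sequences of this pair differ at 30 of 1833 bases (98.4% identical), and the longest identical run is 421 bases. Of the 50-base stretches of Gbp10, 73.3% also occur in Gbp6. A further gene model, Gm43302, runs from 105214907 to 105293695 across both genes and shares 1792 exon bases with Gbp10 and 1726 with Gbp6. It had 776 counts in DAC-treated cells and 195 in control cells, a ratio of 3.39 (2.89 to 3.99). Added together, a sum chosen after the values were seen, Gbp6, Gbp10 and Gm43302 had 1187 counts (31.6 CPM) in DAC-treated cells and 375 counts (11.7 CPM) in control cells, a ratio of 2.70 (2.40 to 3.04). The difference between the ratios of Gbp6 and Gbp10 is therefore uncertain, while the sum of the locus was higher in DAC-treated cells. As Gm43302 shares exon bases with both genes, some reads may be counted more than once in this sum. Its counting interval does not cover that. Gbp11, annotated as a polymorphic pseudogene beside them, had 9 counts in DAC-treated cells and 5 in control cells, under the CPM minimum.

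**Figure D2:**
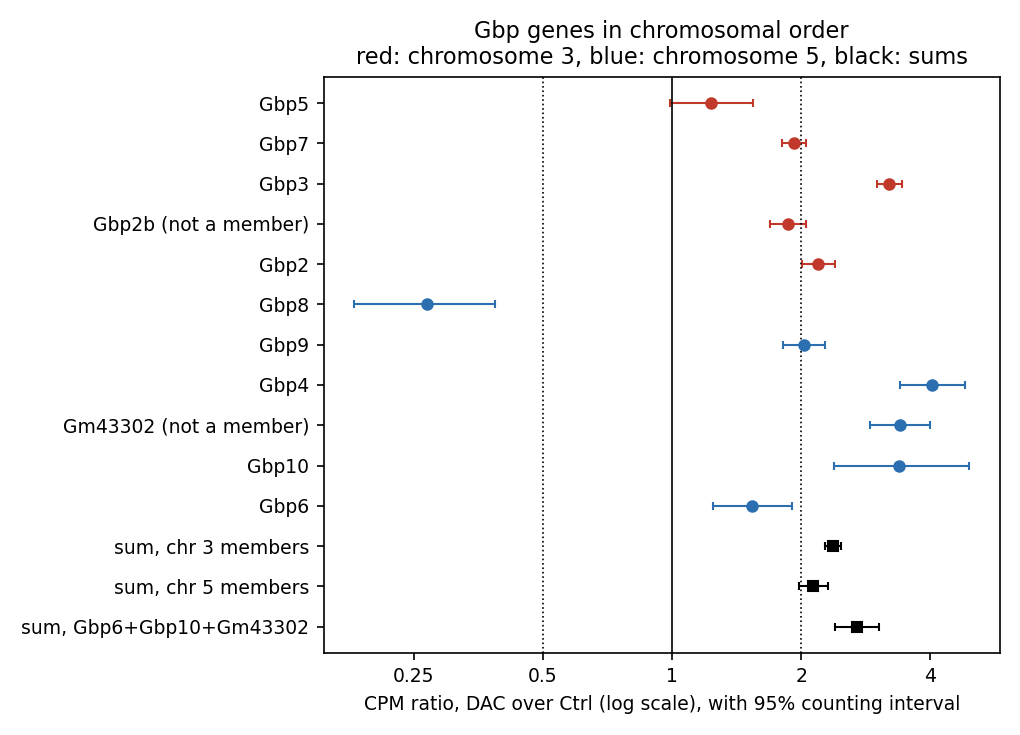
CPM ratio of DAC-treated over control cells on a log scale for each Gbp gene past the CPM minimum and Gm43302, in genomic order from top to bottom, with exact 95% counting intervals. Red marks chromosome 3, blue chromosome 5 and black the sums; the solid line is a ratio of 1 and the dotted lines are ratios of 0.5 and 2. Gbp8 at 0.268 is the only gene left of the solid line, and Gbp4 at 4.03 lies farthest right.

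The clusters were then compared as sums. The 4 chromosome 3 genes summed to 8830 counts (235 CPM) in DAC-treated cells and 3175 counts (99.1 CPM) in control cells, a ratio of 2.37 (2.28 to 2.47). The 5 chromosome 5 genes summed to 2272 counts (60.5 CPM) in DAC-treated cells and 908 counts (28.4 CPM) in control cells, a ratio of 2.13 (1.97 to 2.31). These intervals overlap. On chromosome 3, 2 of 4 genes were higher and 0 lower, with a median log2 ratio of 1.04. On chromosome 5, 3 of 5 were higher and 1 lower, with a median log2 ratio of 1.02. Of all tested genes, 10.8% were higher and 5.29% lower, with a median log2 ratio of -0.02. With Gm43302 added, chosen after the values were seen, the chromosome 5 ratio was 2.35 (2.20 to 2.53), with some reads possibly counted more than once. Without Gbp8, also chosen after its value was seen, it was 2.43 (2.24 to 2.64). With Gbp2b added, the chromosome 3 ratio was 2.29 (2.20 to 2.38). Ratios of single genes ran from 1.24 to 3.21 on chromosome 3 and from 0.268 to 4.03 on chromosome 5.

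The make-up of the Gbp transcripts shifted toward Gbp3 and Gbp4. Gbp3 held 34.8% of the counts of the 9 genes in DAC-treated cells (exact 95% interval 33.9% to 35.7%) and 25.2% in control cells (23.8% to 26.5%). Gbp4 held 6.99% (6.52% to 7.48%) in DAC-treated cells and 4.02% (3.44% to 4.66%) in control cells. Gbp7 held 26.1% (25.3% to 27.0%) in DAC-treated cells and 31.5% (30.1% to 33.0%) in control cells, so the most counted member was Gbp3 after DAC and Gbp7 in the control. Gbp8 held 0.351% (0.250% to 0.480%) in DAC-treated cells and 3.04% (2.53% to 3.61%) in control cells. The share of Gbp2 was 16.8% in DAC-treated cells and 17.7% in control cells, with intervals that overlap.

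Levels of different genes were compared per kb of annotated exon. In DAC-treated cells the order was Gbp3 (31.5 CPM per kb), Gbp2 (19.7), Gbp7 (13.8), Gbp9 (5.38), Gbp4 (2.76), Gbp6 (1.13), Gbp10 (1.09), Gbp5 (0.802) and Gbp8 (0.301). Among neighbors in this order, only Gbp6 and Gbp10 had overlapping counting intervals. In control cells the order was Gbp3 (9.82 CPM per kb), Gbp2 (8.97), Gbp7 (7.16), Gbp9 (2.66), Gbp8 (1.12), Gbp6 (0.734), Gbp4 (0.683), Gbp5 (0.649) and Gbp10 (0.323). There the intervals overlapped between Gbp3 and Gbp2, between Gbp6 and Gbp4, and between Gbp4 and Gbp5. The same 4 genes, with 3 of them on chromosome 3, had the highest level per kb in both conditions. Gbp8 ranked 9 of 9 in DAC-treated cells and 5 of 9 in control cells, where it ranked 6 per kb of its longest transcript and 7 per kb of sequence found in no other gene. This last order divided all counts of a gene by the kb of its sequence found in no other gene. By it Gbp10 moved up to the fourth place in DAC-treated cells, since little of its sequence is its own. The counts were not limited to reads in such sequence, so ranks by this length are uncertain.

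Flanking genes past the CPM minimum were few, where 10.8% of all tested genes were higher and 5.29% lower. In or within 500 kb of the chromosome 3 cluster, 12 further genes were listed, 4 of them past the CPM minimum, with 0 higher and 0 lower. Their ratios ran from 0.514 to 0.963. Pdlim5, a cytoskeletal adaptor 98.3 kb before Gbp5, had 4761 counts in DAC-treated and 7888 in control cells, a ratio of 0.514 (0.496 to 0.533). On the other side, the nearest listed gene was Kyat3, a kynurenine aminotransferase 63.0 kb after Gbp2, with 34 counts in DAC-treated and 0 in control cells, under the CPM minimum. In or within 500 kb of the chromosome 5 cluster, 10 further genes were listed, 7 of them past the minimum, with 0 higher, 2 lower and ratios from 0.442 to 1.74. The 2 lower genes were Lrrc8d, a subunit of volume-regulated anion channels (1164 counts in DAC-treated and 2244 in control cells, a ratio of 0.442), and BC005561 (410 counts in DAC-treated and 775 in control cells, a ratio of 0.451). With scaling by library totals neither was called lower, at ratios of 0.505 for Lrrc8d and 0.515 for BC005561. The nearest listed genes, the pseudogene Gm5870 (1 count in DAC-treated and 0 in control cells) and the long noncoding RNA gene Gm32051 (11 counts in DAC-treated and 12 in control cells), were under the minimum, and the nearest past it were Zfp951, with a ratio of 0.707 (0.585 to 0.855), and Lrrc8b, with 0.959 (0.894 to 1.03).

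**Figure D3:**
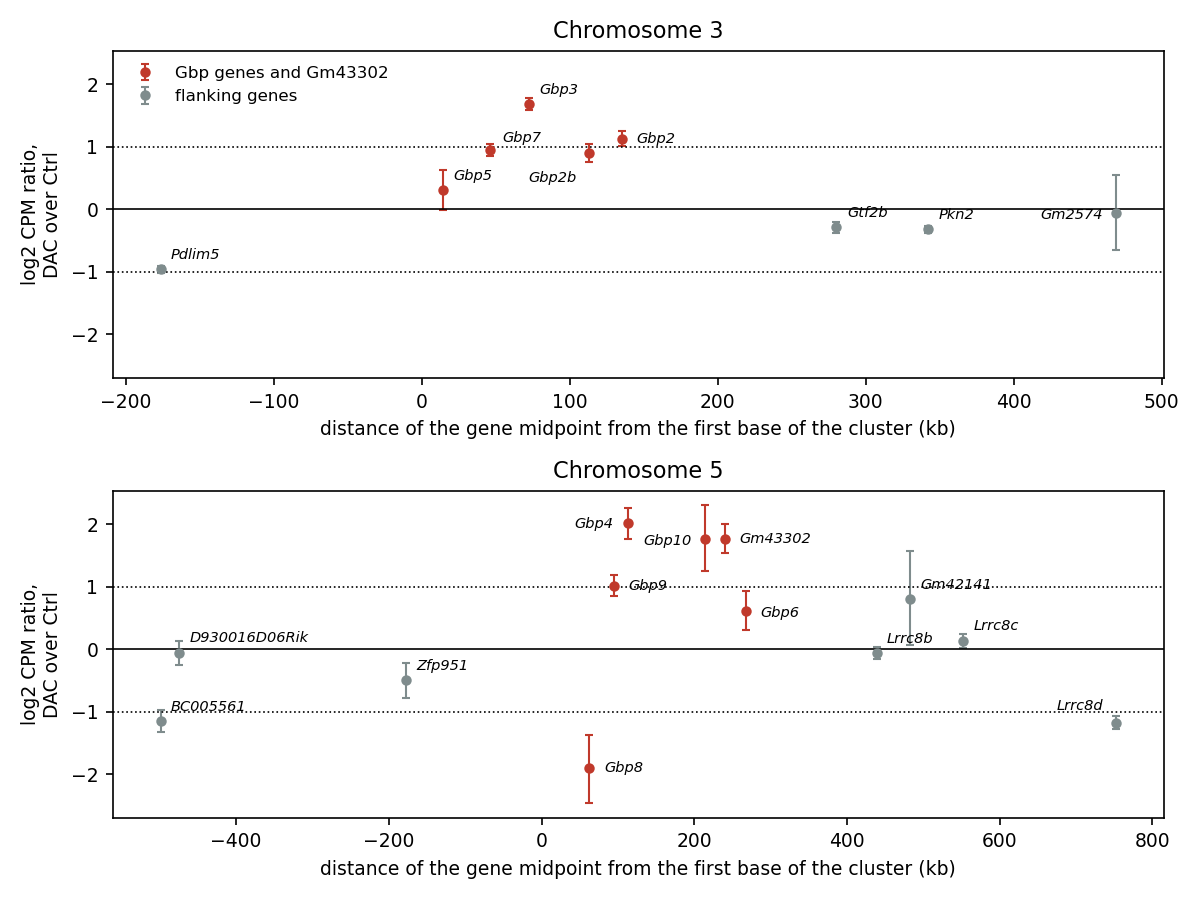
Log2 CPM ratio of DAC-treated over control cells for every gene past the CPM minimum in and within 500 kb of each cluster, against the distance of the gene's midpoint from the first base of the cluster in kb. Red points are Gbp genes and Gm43302, grey points are flanking genes, bars are exact 95% counting intervals, and dotted lines mark log2 ratios of -1 and 1. Of the flanking genes, none lies above 1, and Lrrc8d and BC005561 lie below -1.

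Sequence relationships were compared with the readout, using the coding sequences of the annotated transcripts. The 10 pairs of chromosome 5 genes were 90.5% to 98.4% identical (median 90.8%). The 6 pairs of chromosome 3 genes were 67.0% to 79.6% identical (median 67.3%), with Gbp3 and Gbp7 the closest pair. The 20 pairs between the chromosomes were 65.8% to 76.5% identical (median 72.0%). The chromosome 5 cluster was therefore the more uniform in sequence. Gbp8 and Gbp4, which had the lowest and the highest ratio of the 9, were 92.9% identical. Without Gbp8, which had 39 counts in DAC-treated cells, ratios ran from 1.53 to 4.03 on chromosome 5. Those on chromosome 3 ran from 1.24 to 3.21. The assignment of reads to Gbp8, Gbp6 and Gbp10 is uncertain. Gbp8 also had the shortest coding sequence, with 525 codons before the stop, against 589 to 638 in the other 8 genes. Its transcript had 10 exons.

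**Figure D4:**
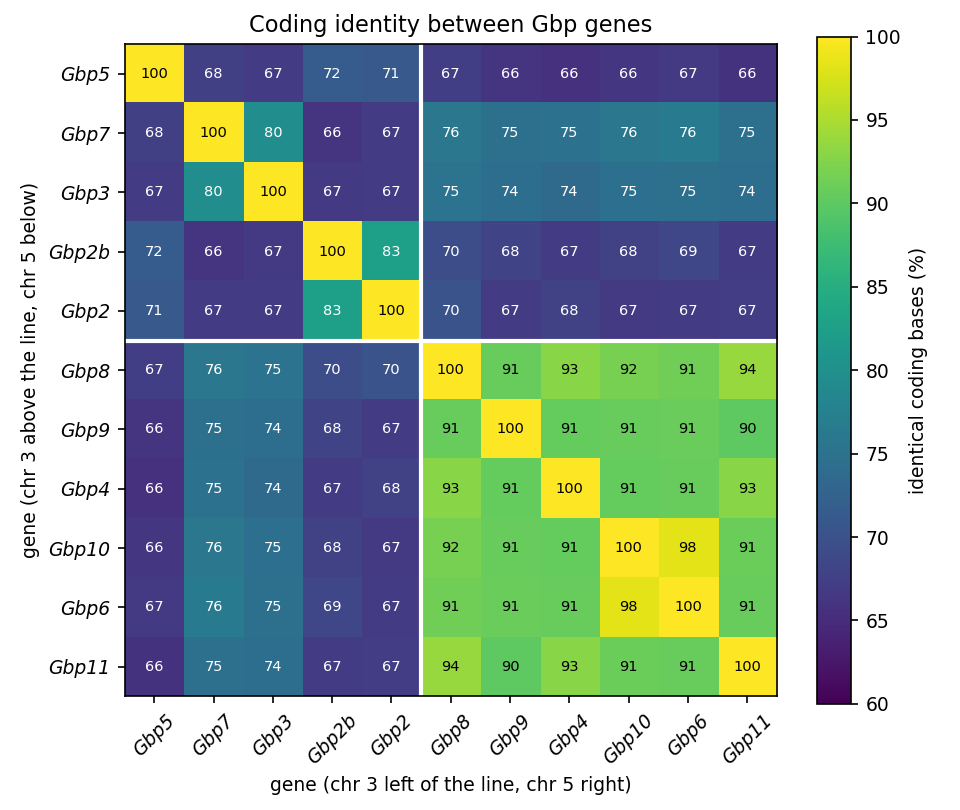
Percentage of identical coding bases for each pair of Gbp genes, with chromosome 3 genes above and left of the white lines and chromosome 5 genes below and right of them. The chromosome 5 block lies between 90.0% and 98.4%, with Gbp6 and Gbp10 the closest pair, while pairs of chromosome 3 genes lie between 66.2% and 82.5%, with Gbp2 and Gbp2b the closest.

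A feature that splits the family by function is a C-terminal CaaX box, the cysteine-led motif at which some GBPs are prenylated and so anchored to membranes. The last codons of the coding sequences are shown 5′ to 3′ on the coding strand, ending with the stop codon, with a cysteine codon at the fourth place before the stop in capitals.
Gbp2, chr3:142637479-142637493: TGCactatactctga
Gbp5, chr3:142521148-142521162: TGTgttataagctaa
Gbp2b, chr3:142618191-142618205: TGCaccatactttaa
Gbp3, chr3:142572678-142572692: tcactaagtagttag
Gbp7, chr3:142546560-142546574: gttagaaaactctaa
Gbp6, chr5:105273102-105273116: ctaaagcatttatga
Of the 9 genes only Gbp2 and Gbp5 had the cysteine codon, as did Gbp2b. The end of Gbp10 is identical to that of Gbp6. The genes with this codon had ratios of 2.19 for Gbp2, 1.24 for Gbp5 and 1.86 for Gbp2b. The other 7 genes ran from 0.268 (Gbp8) to 4.03 (Gbp4). Apart from Gbp8 their lowest ratio was 1.53 (Gbp6), so Gbp5 lay below all of them but Gbp8. The assignment of reads to Gbp8 and Gbp6 is uncertain. Of 8 genes of prenylation and CaaX processing, 1 was higher and 1 lower, beside 10.8% and 5.29% of all tested genes, with a median log2 ratio of -0.10. Fdps, which makes farnesyl diphosphate, had a ratio of 2.23 (2.09 to 2.39). Fntb, the beta subunit of farnesyltransferase, had 0.442 (0.400 to 0.487) but was not called lower with library totals (0.504), and Pggt1b, its counterpart in the enzyme that attaches geranylgeranyl groups, had 0.541 (0.502 to 0.584). Zmpste24, a CaaX protease and the most abundant gene of the list, had 0.868 (0.827 to 0.911).

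Genes upstream of the Gbps were examined next. The ligand gene Ifng was not among the listed genes. Of the 13 other genes of interferon-gamma reception and signaling, 4 were higher (10.8% of all tested genes) and 0 lower (5.29% of all tested genes), with a median log2 ratio of 0.24 (all tested genes, -0.02). Irf1, a transcription factor that Gbp promoters depend on, had 2004 counts in DAC-treated and 676 in control cells, a ratio of 2.53 (2.31 to 2.76). Irf8, a related factor best known from myeloid cells, had 298 counts in DAC-treated and 54 in control cells, a ratio of 4.70 (3.51 to 6.41). Stat2, which acts downstream of type I interferon and had the highest CPM of the list in DAC-treated cells, had 8174 counts in DAC-treated and 3381 in control cells, a ratio of 2.06 (1.98 to 2.15), which GC centring put at 1.97, under the limit. Socs1, a feedback inhibitor of JAK kinases, had 282 counts in DAC-treated and 98 in control cells, a ratio of 2.45 (1.94 to 3.12). The receptor genes Ifngr1 and Ifngr2 had ratios of 1.49 and 1.67, and the kinase genes Jak1 and Jak2 had 0.672 and 0.868, all within the 2-fold limits.

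The immunity-related GTPases (IRGs), the other interferon-inducible GTPase family of vacuolar defense, moved in both directions. Their list also held Gvin1, a very large inducible GTPase outside the IRGs, with a ratio of 1.02 (0.976 to 1.06). Of 14 genes of the list past the CPM minimum, 4 were higher (10.8% of all tested genes) and 4 lower (5.29% of all tested genes). Their median log2 ratio was 0.74 (all tested genes, -0.02). Tgtp1 and Tgtp2, near-identical neighbors that dismantle vacuole membranes, had ratios of 4.47 (3.97 to 5.04) and 3.85 (3.49 to 4.25). Igtp, also called Irgm3, had 2.18 (2.02 to 2.35) and Gm12250 had 3.41 (1.87 to 6.63). As copies this close share reads, the split between the 2 Tgtp genes is uncertain. The lower genes were Gm12185 (0.335), Gm5431 (0.462), 9930111J21Rik1 (0.304) and 9930111J21Rik2 (0.375). Sequence shared between IRG genes was not computed, so whether these lower genes share reads was not tested. Irgm1, a regulator of the other IRGs and the gene of the list with the highest CPM in DAC-treated cells, had 1.78 (1.70 to 1.86). The count of higher IRGs was 7 with library totals and 7 with GC centring, and Gm5431 was not called lower with either. Over all genes, 1889 were higher with library totals and 1391 with GC centring. Dynamin-like GTPases outside both families included 15 genes past the minimum, of which 0 were higher and 1 lower, with a median log2 ratio of -0.14. The lower gene, where 5.29% of all tested genes were lower, was Dnm1l, the mitochondrial fission GTPase, at 0.475 (0.458 to 0.492). It was not called with library totals (0.542) or GC centring (0.580). Ehd1, an endosomal GTPase and the one with the highest CPM in DAC-treated cells, had 1.15 (1.11 to 1.18), and the antiviral genes Mx1 and Mx2 had 1.37 and 1.65.

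Partners of the GBPs were read against the same shares of all tested genes, 10.8% higher and 5.29% lower, and differences between the lists were not tested. Of 12 genes of inflammasomes and pyroptosis, 9 passed the CPM minimum, 5 were higher and 0 lower, with a median log2 ratio of 1.06. Zbp1, a sensor of Z-form nucleic acids, had a ratio of 10.6 (9.40 to 12.1). The inflammasome sensor Nlrp3 had 4.99 (3.86 to 6.54), the protease Casp1 3.30 (2.78 to 3.93) and the pore-forming Gsdmd 2.08 (1.91 to 2.26). Nlrp3 was also an example gene of the study, and Gsdmd was not called with GC centring (1.82). Pycard, the adaptor between sensor and protease, had 38 counts in DAC-treated and 3 in control cells, a ratio of 10.8 (3.42 to 54.7). Casp4, the protease of the noncanonical inflammasome, and Aim2, a DNA sensor, did not reach the limits, with 0.885 (0.765 to 1.02) and 0.871 (0.818 to 0.927). Ifi204, a DNA sensor of the same family as Aim2 and the most abundant gene of the list, had 0.609 (0.589 to 0.630). Of 10 genes of ATG8 conjugation, which guides GBPs to vacuoles in mouse cells, 0 were higher and 0 lower, with a median log2 ratio of -0.45 and 0.742 (0.717 to 0.768) for the most abundant gene, Gabarap. Of 8 ubiquitin and galectin genes linked to damaged vacuoles, 0 were higher and 0 lower, with a median log2 ratio of 0.32 and 1.36 (1.34 to 1.38) for the autophagy receptor Sqstm1.

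**Figure D5:**
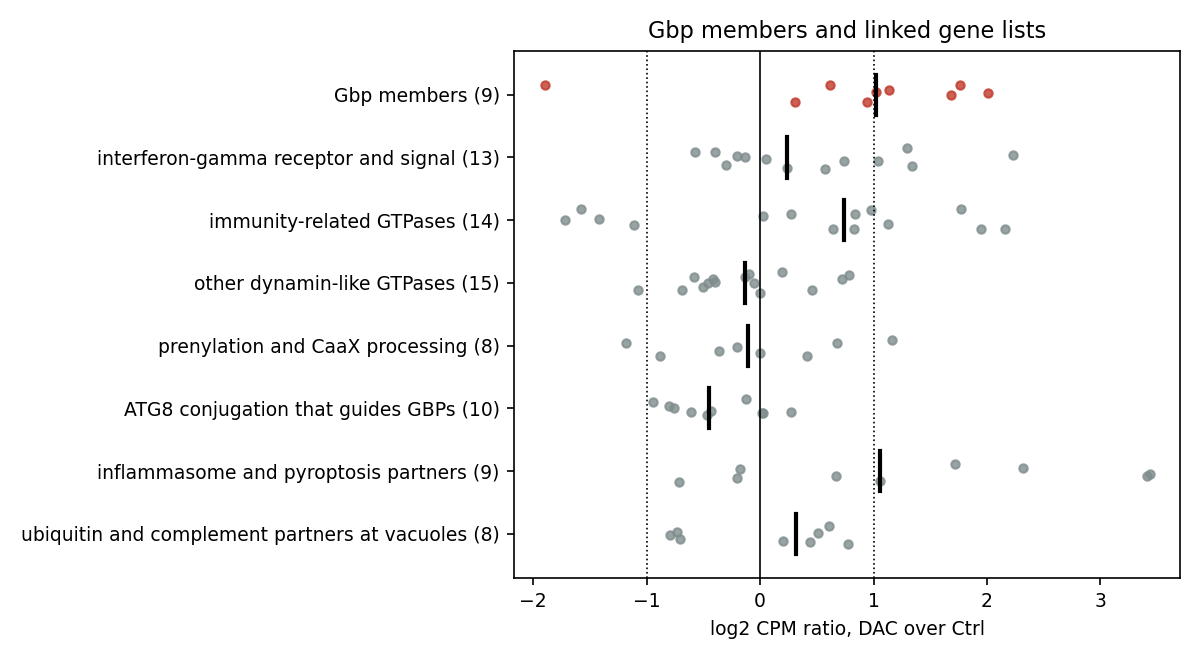
Log2 CPM ratio of DAC-treated over control cells for the 9 Gbp genes (red, top row) and for the genes of 7 linked lists (grey), each point 1 gene past the CPM minimum, with the median as a black bar and the number of genes in parentheses. Dotted lines mark log2 ratios of -1 and 1, and the vertical scatter within a row has no meaning. The medians of the Gbp genes (1.02) and of the inflammasome and pyroptosis genes (1.06) lie near 1, and the other medians lie between -0.45 and 0.74.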

How the data were processed

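Poly-A RNA of CT26 cells was analysed in 1 DAC and 1 control library, and the labels do not say whether a library pools cultures. The authors deposited whole-number counts per Ensembl gene, not normalized, in 1 table per library. Tools listed in the submitters' processing notes were STAR 2.5.3a with the build mm10, StringTie 1.3.1c, Cufflinks and DESeq, after trimming by Trim Galore. The methods of the paper instead give FPKM from CASAVA, with TopHat and Bowtie for reads across splice or fusion points. The sources used here do not give which route made the counts, or how strand and multiple matches were handled. Multiple matching bears on Gbp6, Gbp10 and Gbp8 most.

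Of 24223 identifiers, 24122 matched GENCODE M21 (GRCm38) and 101 did not. TMM factors (1.07 for DAC, 0.936 for control) came from edgeR 4.0.16 in R 4.3.3. Ratios, exact binomial intervals, 50-base stretches of transcripts found in other genes, and coding alignments came from Python 3.11.15 with scipy 1.17.1, numpy 2.4.6, biopython 1.88 and pandas 2.3.3. The ratio, interval and call rule were tested on simulated counts with known ratios. The simulation had no TMM factors, no reads shared between genes and no differences between cultures, so it does not bear on these. A count of 0 was set against a floor of 3 counts (0.0798 CPM for DAC and 0.0937 CPM for control). Library totals set the precision, with 1570 genes at 0 in DAC and 3506 in control.

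The members and the 7 pathway lists (87 genes) were chosen with earlier results of these data known. The genes named are all 9 members, other listed Gbp genes, called or nearest measured genes within 500 kb of each cluster, and, per list, called genes (up to 6, those with the interval farthest from 1) with the most abundant one. Gm43302, Gm43802, Ifngr1, Ifngr2, Jak1, Jak2, Pggt1b, Casp4, Aim2, Mx1, Mx2, Gvin1 and the marker genes fall outside this rule and were named after their values were seen. The scaling was varied with upper-quartile factors, DESeq2 1.42.0 size factors, library totals and centring within 20 bins of GC content. Other alternatives were a prior count of 2, no filter or a minimum of 5 CPM, a fold of 4, an interval beyond 2-fold, intervals from counts divided by 3, and other lengths. One listed gene is not reported here.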

Additional observations from a re-analysis of the deposited data

How the results depend on the processing

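With 1 library per condition no replicate could be left out, and depth limited Gbp8 and Gbp10 most. No paired analysis was possible because each condition has a single library. Of 178 recomputed values, 147 stayed within their interval or within 1.5 times the main count, with list counts that stayed at 0 among them. No recomputed log2 ratio changed sign, while counts of genes and ranks have no direction to change. Library totals moved the member median log2 ratio to 1.21 (main 1.02), the log2 ratio of the chromosome 3 sum to 1.44 (main 1.24) and of the chromosome 5 sum to 1.28 (main 1.09), lower genes in all to 458 (main 716) and lower pathway genes to 3 (main 6). GC centring moved the member median to 1.23. By either of these, 6 members were higher (main 5, Gbp7 added). A minimum of 5 CPM gave 0 lower members (main 1), 684 higher genes (main 1468) and 450 lower, with 4 higher members. No filter gave 2672 higher and 1239 lower genes. A fold of 4 left 1 higher member (Gbp4) and 0 lower. An interval beyond 2-fold left 4 higher members, without Gbp9. Chosen after the data were seen, adding Gm43302 moved the log2 ratio of the chromosome 5 sum to 1.24, leaving out Gbp8 moved it to 1.28, and centring on the median of all genes kept each member's ratio within its interval. Upper-quartile and DESeq2 factors changed no member's call. The causes of these shifts were not tested beyond the alternatives' own construction.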
